A study of Mus musculus with 8 samples.

Results

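The genes described here encode the voltage-gated calcium channels, the voltage-gated sodium channels and the hyperpolarization-activated (HCN) cation channels, with their auxiliary subunits. They were chosen by gene symbol alone, as the Cacna1, Cacna2d, Cacnb, Cacng, Scn and Hcn genes with at least 50 counts summed over the 8 libraries. Of 33885 symbols in the count tables, 44 matched and 42 met the count minimum. These were 10 calcium channel alpha1 genes, 4 alpha2delta genes, 4 calcium channel beta genes, 8 gamma genes, 9 sodium channel alpha genes, 3 sodium channel beta genes and 4 HCN genes. The symbols left out were Scn4a, the skeletal muscle sodium channel gene, with 22 counts in all, and Scn2b, a sodium channel beta gene, with 0 counts in every library. Scn2b was 1 of 9185 symbols listed at 0 in all 8 libraries, so its 0 is given only as the listed value.

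The libraries were made from total RNA of adult male C57Bl6J mice, with 2 libraries in each of 4 groups. The nucleus accumbens (NAc), a part of the ventral striatum, came from mice conditioned with cocaine (7.5 mg/kg, injected intraperitoneally) in a place-preference chamber and from mice left in the home cage. The medial prefrontal cortex (mPFC) came from mice defeated by aggressive male CD1 mice and from home-cage mice, and tissue was taken 15 min after the experience. The titles of the mPFC libraries carry the letters WT in both groups, and those of the NAc libraries do not. The labels list no group given saline in the chamber or handled alone, so a difference after cocaine or defeat cannot be told apart from one after injection, chamber exposure or handling. The labels mention no pooling and do not say whether replicates came from different animals. Each p-value therefore reflects the spread among these libraries alone, which may be technical.

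Voltage-gated channels open when the membrane potential changes. The pore-forming alpha1 subunit of a calcium channel lets calcium in for transmitter release, dendritic signals and gene regulation, while alpha2delta and beta subunits bring the channel to the membrane and tune its gating. Most gamma genes in brain encode TARPs, which escort AMPA-type glutamate receptors to synapses. Sodium channel alpha subunits carry the action potential and their beta subunits set its kinetics. HCN channels open on hyperpolarization and set resting excitability and rhythmic firing. Striatal projection neurons are inhibitory and cortical projection neurons are excitatory, and the 2 cell types are known to carry different sets of these subunits.

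Library totals ranged from 111901829 to 179479978 counts, and the 42 genes took 0.749 to 1.08% of them. Levels are in CPM, in which each library's counts are scaled by its total and its TMM factor from edgeR. The region labels were checked against marker genes. All 12 striatal projection neuron markers were detected and their summed level was 2617 to 7235 CPM in NAc and 925 to 1057 CPM in mPFC. The 10 cortical glutamatergic markers summed to 850 to 1666 CPM in NAc and 2381 to 2553 CPM in mPFC. Cortical markers were therefore present in the NAc libraries, and striatal markers in the mPFC libraries, below their level in the other region. In NAc the libraries stood apart by number: the striatal sum was 6319 and 7235 CPM in those numbered 1 and 2863 and 2617 CPM in those numbered 2, and the cortical sum was 1031 and 850 against 1527 and 1666 CPM. The labels do not say what the number marks, and each NAc result below is given with this split in view. In this bulk tissue, fewer cells of a type and less RNA per cell cannot be told apart.

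The promoters of 4 genes are shown because their genes carry the main patterns: Cacng5 and Hcn4, higher in NAc and highest in the libraries numbered 2; Cacna2d3, higher in NAc and highest in those numbered 1; and Scn7a, far lower in NAc. The bases lie just before the RefSeq start of each gene (RefSeq, build GRCm38.p6) and are written on the gene's strand, with capitals marking matches to a motif searched. Bases inside the GENCODE gene model were left out. The Scn7a stretch therefore has 246 bases, against 250 for the others, and stops short of its RefSeq start. They are chr11:107915056-107915305, minus strand, for Cacng5; chr14:29721865-29722114, minus strand, for Cacna2d3; chr9:58822699-58822948, plus strand, for Hcn4; and chr2:66784915-66785160, minus strand, for Scn7a.
Cacng5: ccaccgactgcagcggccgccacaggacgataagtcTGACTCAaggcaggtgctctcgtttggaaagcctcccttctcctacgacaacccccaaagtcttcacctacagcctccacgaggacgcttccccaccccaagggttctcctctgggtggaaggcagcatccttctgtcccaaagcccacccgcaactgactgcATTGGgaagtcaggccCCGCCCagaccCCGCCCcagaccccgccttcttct
Cacna2d3: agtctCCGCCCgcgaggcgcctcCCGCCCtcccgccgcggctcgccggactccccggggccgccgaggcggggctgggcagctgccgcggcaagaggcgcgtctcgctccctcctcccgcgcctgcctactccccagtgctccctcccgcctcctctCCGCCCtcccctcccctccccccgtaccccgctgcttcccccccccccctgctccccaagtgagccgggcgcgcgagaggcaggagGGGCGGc
Hcn4: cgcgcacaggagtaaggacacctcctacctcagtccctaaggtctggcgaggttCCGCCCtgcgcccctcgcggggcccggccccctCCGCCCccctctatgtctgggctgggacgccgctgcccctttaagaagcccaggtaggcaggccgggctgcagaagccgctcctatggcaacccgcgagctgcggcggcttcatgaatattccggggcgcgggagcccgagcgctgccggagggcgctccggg
Scn7a: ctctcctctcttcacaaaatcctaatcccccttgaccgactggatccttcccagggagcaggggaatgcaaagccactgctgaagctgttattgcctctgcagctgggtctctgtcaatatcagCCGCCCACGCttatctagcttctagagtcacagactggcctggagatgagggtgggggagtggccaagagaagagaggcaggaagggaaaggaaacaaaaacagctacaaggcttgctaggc

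The motifs were the GC box GGGCGG, the CCAAT box CCAAT, the AP-1 site TGACTCA, the Egr site GCGTGGGCG and the CRE TGACGTCA, each on both strands. The GC box and the Egr site can share bases, as they do in Scn7a. The Cacna2d3 stretch held 4 GC boxes, Hcn4 held 2, and Cacng5 held 2 with 1 CCAAT box and 1 AP-1 site. RefSeq windows of 300 bases, from 250 before to 50 after a start, were at hand for 30 of the 42 genes, in 41 windows. The GC box was in 43.9% of these windows and 35.7% of all 32851 windows, and the CCAAT box in 24.4% and 37.4%. The AP-1 site was in 1 window of these genes (Cacng5) and 5.2% of all windows, the Egr site in 1 (Scn7a) and 0.612%, and the CRE in 0 and 1.79%. A match is a description of letters, not of a bound site.

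Most of the 42 genes were well expressed: 31 had at least 10 CPM in all 8 libraries, 23 at least 100 CPM, and 4 were below 1 CPM in all of them. Those 4 were Cacna1s, the skeletal muscle L-type gene, Cacng1, its muscle gamma partner, and Scn10a and Scn11a, best known from sensory neurons of the dorsal root ganglion. Their raw counts per library were low, from 60 to 88 for Cacna1s and from 10 to 37 for Scn11a. All 42 passed the low-count filter in every comparison.

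**Figure D1:**
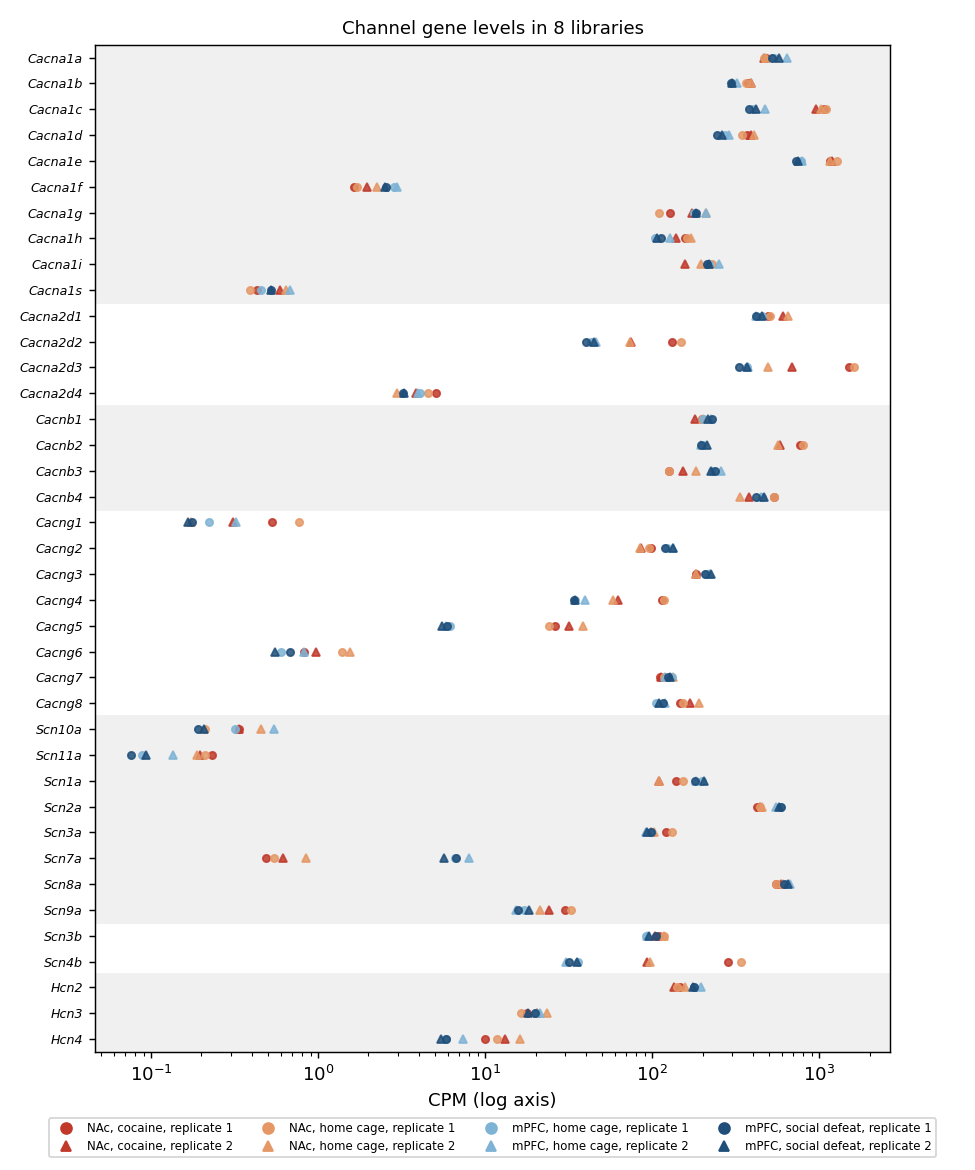
Level of channel genes (rows, grouped by family with shaded bands) in each of the 8 libraries, in CPM on a log axis; circles are replicates 1 and triangles replicates 2. Cacna2d3 and Scn4b spread widely among the NAc libraries, and Scn7a separates the regions with no overlap.

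To compare levels between genes, the mean CPM over the 8 libraries was divided by the length of the merged exons in kilobases. On this scale Cacna2d3 had 82.3, the TARP genes Cacng3 and Cacng8 had 72.9 and 59.2, and Hcn2 had 51.1. Among pore-forming calcium channel genes, Cacna1a, which encodes the P/Q-type channel of synaptic terminals, had 45.5, the R-type gene Cacna1e 38.8, the N-type gene Cacna1b 34.4 and the L-type gene Cacna1c 34.4. The T-type genes Cacna1i, Cacna1g and Cacna1h were lower, at 21.6, 17 and 13.8. Among sodium channel alpha genes, Scn2a at 39.9 and Scn8a at 38.6 stood above Scn1a at 14.3 and Scn3a at 8.39. Below Hcn2, Hcn3 had 4.73 and Hcn4 1.54. Per kilobase of the whole gene with introns, only 6 of the 10 highest genes stayed among the 10 highest, and Cacna2d3 moved from rank 2 to rank 26. Whether reads in introns were counted is not given in the sources used here, so this order rests on the length used. It also joins both regions, and the order within each region was not computed. In home-cage libraries the mean of Cacna1c was 1062 CPM in NAc and 437 CPM in mPFC, and that of Cacna1a 471 and 589 CPM. For Cacna2d3 these means were 1053 and 372 CPM.

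The first comparison asked how NAc and mPFC of home-cage mice differ in these genes. In the NAc, 7 genes were higher and 2 lower. Those higher included the sodium channel beta gene Scn4b, the TARP gene Cacng5, the calcium channel beta gene Cacnb2, the L-type gene Cacna1c, the HCN gene Hcn4 and the R-type gene Cacna1e, with folds from 1.55 to 6.57. Those lower were Scn7a, which encodes the sodium-sensing channel known as NaX, and Cacng2, which encodes the TARP stargazin. By edgeR's quasi-likelihood test at a Benjamini-Hochberg adjusted p under 0.05, over all genes tested 7.01% were called higher and 5.35% lower. Of the 42 genes 21.4% were called in either direction. Without either mPFC home-cage library 0 of the 42, and 0 of all genes, were called, while without NAc home-cage replicate 1 the count was 18 higher and 10 lower, and without replicate 2 it was 18 and 13. DESeq2 called 15 higher and 7 lower. Region and count table cannot be told apart, since each region has its own table.

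The second comparison set the NAc after cocaine against the mPFC after defeat, which share no library with the first. Here 17 genes were higher in NAc and 8 lower (59.5% of the 42), where over all genes 19.2% were higher and 17.1% lower. All 9 genes called in home-cage mice were called again in the same direction, and 38 of the 42 had the same sign in both. Over the 42 genes the log2 fold changes of both comparisons had Pearson r = 0.97, a description over genes that share libraries, with no test. Striatal markers were higher in NAc for 10 of 12 genes in home-cage mice and 12 of 12 in exposed mice. Cortical markers were lower for 4 of 10 and 8 of 10, and 1 of the 10 was called higher in exposed mice. Of 8 interneuron markers, 1 was higher and 2 lower in home-cage mice, and 2 were higher and 4 lower in exposed mice. Oligodendrocyte markers summed to 1301 to 2457 CPM in NAc and 1067 to 1441 CPM in mPFC. They were called higher for 0 of 8 in home-cage mice (median log2 0.42) and for 8 of 8 in exposed mice (median 1.02). The part of these cells in the channel gene values was not tested. In exposed mice the region cannot be told apart from the kind of experience. Without defeat replicate 1 the counts fell to 4 higher and 1 lower, and without defeat replicate 2 to 4 and 2. Cacng5, Cacnb2, Cacna1c and Scn7a were called in both of these fits.

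**Figure D2:**
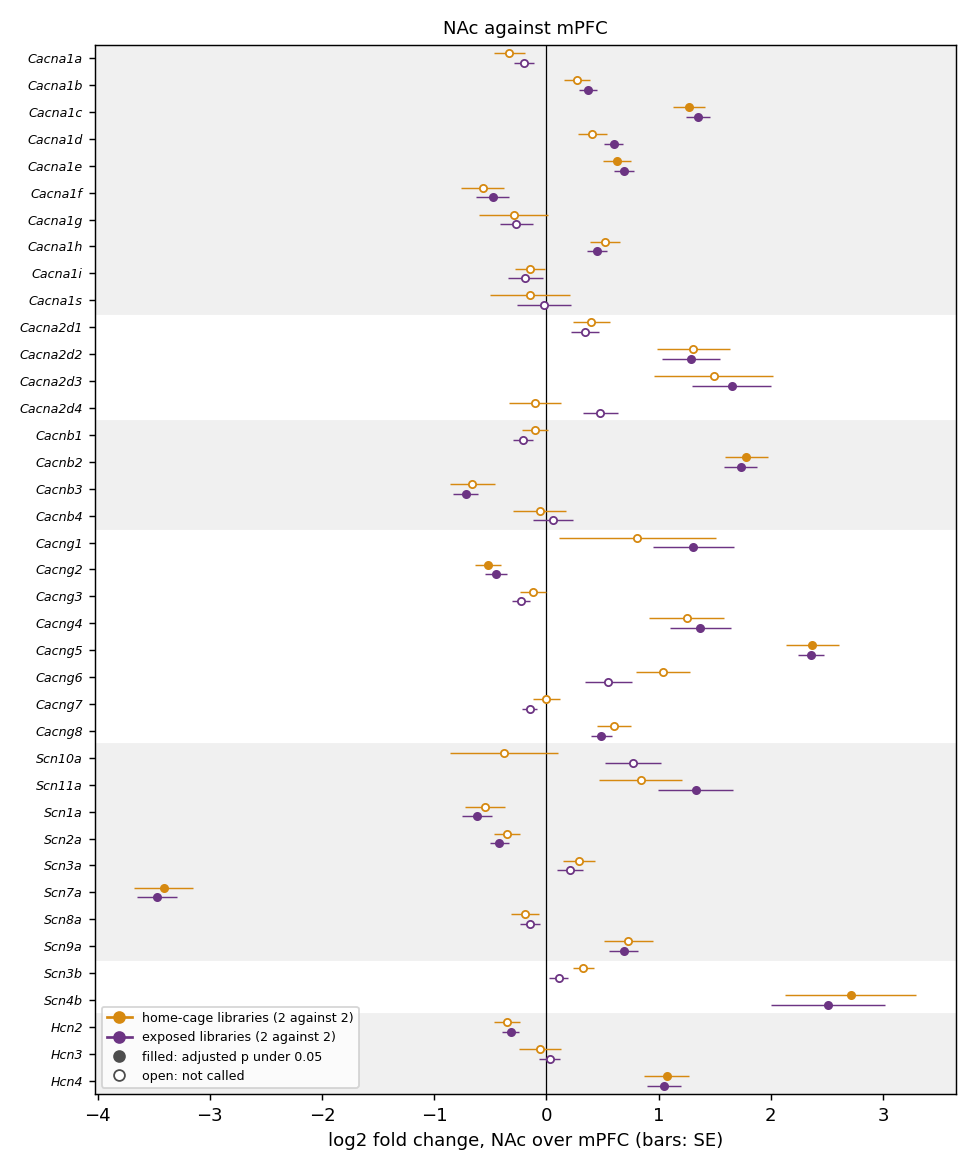
Log2 fold change of NAc over mPFC for channel genes (rows, grouped by family) in home-cage (orange) and exposed (purple) libraries; bars are standard errors and filled points have an adjusted p under 0.05. Scn4b and Cacng5 lie above 2 and Scn7a below -3 in both.

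Of the 10 alpha1 genes, which encode the pore, 2 were higher in NAc in home-cage mice (7.01% of all genes). In exposed mice 5 were higher and 1 lower (19.2% and 17.1% of all genes). The families are small, and their counts here and below are descriptions with no test of a family. Cacna1c (chr6:118587240-119196418, GRCm38) had 1103 and 1021 CPM in NAc home-cage libraries, 1067 and 961 CPM after cocaine, 402 and 473 CPM in mPFC home-cage libraries and 380 and 420 CPM after defeat. Every NAc library was above every mPFC library. The difference was 2.42-fold in home-cage mice (log2 1.27, SE 0.143, adjusted p = 0.00963) and 2.56-fold in exposed mice (log2 1.35, SE 0.107, adjusted p = 0.0014). Cacna1e, whose R-type channels admit calcium in dendrites and terminals, had 1279 and 1161 CPM in NAc home-cage libraries, 1166 and 1188 after cocaine, 780 and 790 in mPFC home-cage libraries and 725 and 748 after defeat. Again the regions did not overlap, and the difference was 1.55-fold (log2 0.63, SE 0.127, adjusted p = 0.0376) in home-cage mice. The L-type gene Cacna1d, the N-type gene Cacna1b and the T-type gene Cacna1h were called higher only in the exposed comparison, at log2 0.60 (SE 0.0853), 0.37 (SE 0.0796) and 0.45 (SE 0.0901); in home-cage mice their values were 0.41, 0.27 and 0.52, with the difference between both comparisons tested below. Cacna1f, the retinal L-type gene, was called lower in exposed mice at log2 -0.48 (SE 0.145), from levels of 1.64 to 2.97 CPM; the call was lost without cocaine replicate 1 (log2 -0.36) and with DESeq2 size factors. The P/Q-type gene Cacna1a had values of the other sign, log2 -0.33 (adjusted p = 0.175) and -0.20 (adjusted p = 0.142), and was not called. The raw-count ratio of Cacna1c to Cacna1a within a library, which needs no scaling, was 2.07 to 2.37 in NAc and 0.73 to 0.749 in mPFC.

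Of the 4 alpha2delta genes, 2 were higher in NAc in exposed mice (19.2% of all genes). Cacna2d3 (chr14:28904943-29721864), whose promoter is printed above, had 1613 and 493 CPM in NAc home-cage libraries and 1500 and 690 CPM after cocaine. In mPFC it had 368 and 376 CPM in home-cage libraries and 331 and 371 CPM after defeat. All NAc libraries were above all mPFC libraries, but those numbered 1 were far above those numbered 2. The fold was 2.81 in home-cage mice (log2 1.49, SE 0.531, adjusted p = 0.127), which was not called, and 3.15 in exposed mice (log2 1.65, SE 0.355, adjusted p = 0.0186), which was; without cocaine replicate 1 the latter was log2 0.99. Cacna2d2, an alpha2delta gene known from the ducky mouse, had 149 and 73.3 CPM in NAc home-cage libraries, 131 and 75.1 after cocaine and 40.2 to 45.8 in mPFC, and was called in exposed mice only (log2 1.29, SE 0.256, adjusted p = 0.0147; home cage log2 1.31, adjusted p = 0.0611). Cacna2d1, which encodes a receptor of gabapentin, had 491 to 652 CPM in NAc and 419 to 456 CPM in mPFC and was called in neither.

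Of the 4 calcium channel beta genes, 1 was higher in NAc in both comparisons (7.01% and 19.2% of all genes). Another 1 was lower in exposed mice (17.1% of all genes). Cacnb2 (chr2:14603088-14987908) had 798 and 565 CPM in NAc home-cage libraries, 765 and 584 after cocaine, 200 and 195 in mPFC home-cage libraries and 197 and 213 after defeat. No NAc value came near the mPFC values. The difference was 3.43-fold in home-cage mice (log2 1.78, SE 0.192, adjusted p = 0.00904) and 3.32-fold in exposed mice (log2 1.73, SE 0.149, adjusted p = 0.00166). Cacnb3 had 126 to 182 CPM in NAc and 224 to 257 CPM in mPFC, and was called lower in exposed mice (log2 -0.72, SE 0.111, adjusted p = 0.0072) but not in home-cage mice (log2 -0.66, adjusted p = 0.0924). The count ratio of Cacnb2 to Cacnb3 was 3.1 to 6.36 in NAc and 0.759 to 0.952 in mPFC, so the gene with more counts changed between regions. This ratio was not scaled by length, and the merged exons span 13228 bases in Cacnb2 and 4010 in Cacnb3. Which gene had more transcripts is therefore not given by a ratio above or below 1. Cacnb1 and Cacnb4 were called in neither comparison, at log2 -0.10 and -0.06 in home-cage mice.

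**Figure D3:**
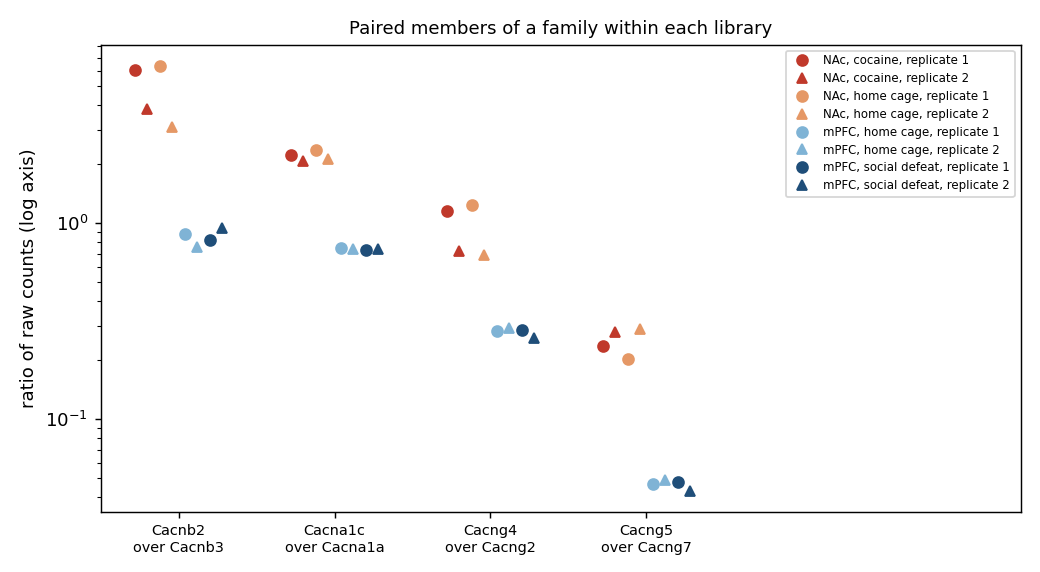
Ratio of raw counts of 4 pairs of related genes in each library, on a log axis; circles are replicates 1 and triangles replicates 2. For each pair drawn the NAc libraries lie above the mPFC libraries, and Cacnb2 over Cacnb3 runs from 3.1 to 6.36 in NAc and from 0.759 to 0.952 in mPFC. Pairs computed and not drawn did not all separate the regions. Cacna2d3 over Cacna2d1 was 0.756 to 3.19 in NAc and 0.789 to 0.896 in mPFC, and Scn1a over Scn8a 0.181 to 0.278 and 0.274 to 0.312.

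Of the 8 gamma genes, 1 was higher and 1 lower in NAc in home-cage mice (7.01% and 5.35% of all genes). In exposed mice 4 were higher and 1 lower (19.2% and 17.1% of all genes). Cacng5 (chr11:107874605-107915055), a TARP gene whose promoter is printed above, had 24.1 and 38.3 CPM in NAc home-cage libraries, 26.1 and 31.6 after cocaine, 6.15 and 5.85 in mPFC home-cage libraries and 5.88 and 5.48 after defeat. The lowest NAc library was well above the highest mPFC library. The difference was 5.17-fold in home-cage mice (log2 2.37, SE 0.239, adjusted p = 0.00778) and 5.13-fold in exposed mice (log2 2.36, SE 0.116, adjusted p = 0.000589). Cacng4, another TARP gene, had 118 and 57.9 CPM in NAc home-cage libraries, 114 and 62.2 after cocaine and 33.8 to 39.3 in mPFC; it was called in exposed mice (log2 1.37, SE 0.272, adjusted p = 0.0146; log2 0.87 without cocaine replicate 1) and not in home-cage mice (log2 1.25, adjusted p = 0.0708). Cacng8, the TARP known from hippocampus, was also called in exposed mice only (log2 0.49, SE 0.0943), as was Cacng1 (log2 1.31, SE 0.358) at 0.165 to 0.768 CPM. Cacng2 (chr15:77991748-78120028) went the other way, with 84.1 to 97.9 CPM in NAc and 119 to 134 CPM in mPFC. Its log2 difference was -0.52 in home-cage mice (SE 0.118, adjusted p = 0.0491, not called with DESeq2 size factors) and -0.45 in exposed mice (SE 0.0994, adjusted p = 0.0208). Cacng3 and Cacng7, the other TARP genes at over 100 CPM, were called in neither comparison. Cacng1, Cacng4 and Cacng5 lie side by side within 0.212 Mb of chromosome 11, and Cacng6, Cacng7 and Cacng8 within 0.103 Mb of chromosome 7. In exposed mice the neighbours Cacng7 and Cacng8 had log2 values of -0.15 and 0.49.

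Sodium channel alpha genes differed between regions in both directions. Scn7a (chr2:66673425-66784914) had the largest difference of the 42 genes and was lower in NAc. It had 0.542 and 0.841 CPM in NAc home-cage libraries, 0.488 and 0.616 after cocaine, 6.6 and 7.96 in mPFC home-cage libraries and 6.7 and 5.7 after defeat. It was 10.6-fold lower in NAc in home-cage mice (log2 -3.41, SE 0.262, adjusted p = 0.00444) and 11.1-fold lower in exposed mice (log2 -3.47, SE 0.175, adjusted p = 0.000589). The main neuronal genes differed less: Scn1a had 109 to 152 CPM in NAc and 181 to 204 in mPFC, and Scn2a 423 to 453 and 551 to 589. Both were called lower in exposed mice only, Scn1a at log2 -0.62 (SE 0.136) and Scn2a at -0.42 (SE 0.084). Scn8a, the gene of the channel at the axon initial segment and nodes, was called in neither (log2 -0.19 and -0.15). Scn9a, better known from sensory neurons, was called higher in exposed mice (log2 0.69, SE 0.129), as was Scn11a (log2 1.33, SE 0.332) at 10 to 37 counts per library, a call lost without cocaine replicate 1 (log2 1.21) and with DESeq2. Scn3a, Scn2a, Scn1a, Scn9a and Scn7a lie in this order within 1.33 Mb of chromosome 2, and Scn7a and Scn9a, next to each other there, had fold changes of opposite sign.

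Among sodium channel beta genes, Scn4b was higher in NAc in both comparisons. Scn4b (chr9:45138395-45154152), whose protein shapes the resurgent sodium current, had 342 and 97 CPM in NAc home-cage libraries, 285 and 93.4 after cocaine, 36 and 30.4 in mPFC home-cage libraries and 31.7 and 35.2 after defeat. All NAc libraries were above all mPFC libraries, and those numbered 1 were above those numbered 2 in both conditions. The difference was 6.57-fold in home-cage mice (log2 2.71, SE 0.587, adjusted p = 0.0436) and 5.72-fold in exposed mice (log2 2.51, SE 0.506, adjusted p = 0.0154). Without NAc home-cage replicate 1 the home-cage value was log2 1.54, and without cocaine replicate 1 the exposed value was 1.49. Scn3b was called in neither.

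Of the 4 HCN genes, 1 was higher in NAc in both comparisons (7.01% and 19.2% of all genes). Another 1 was lower in exposed mice (17.1% of all genes). Hcn4 (chr9:58823412-58863175), the gene of the slow pacemaker channel of the sinus node, had 11.8 and 16.1 CPM in NAc home-cage libraries, 9.91 and 13.1 after cocaine, 5.85 and 7.34 in mPFC home-cage libraries and 5.8 and 5.4 after defeat. All NAc libraries were above all mPFC libraries. The difference was 2.11-fold in home-cage mice (log2 1.07, SE 0.203, adjusted p = 0.0323) and 2.07-fold in exposed mice (log2 1.05, SE 0.15, adjusted p = 0.00588). Hcn2, an abundant HCN gene, had 135 to 157 CPM in NAc and 176 to 195 CPM in mPFC and was called lower in exposed mice only (log2 -0.32, SE 0.0792, adjusted p = 0.0282). Hcn3 was called in neither, at log2 -0.06 and 0.03.

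The next comparison set the NAc libraries numbered 1 against those numbered 2, with condition in the fit and 1 residual degree of freedom among samples. Of the 42 genes 12 were higher in number 1 and 9 lower, where over all genes 9.67% were higher and 9.16% lower. Striatal projection neuron markers were higher in number 1 for 12 of 12 genes (median log2 1.61) and cortical glutamatergic markers lower for 9 of 10 (median -0.81). Oligodendrocyte markers were higher for 8 of 8 (median 0.49), and of 8 interneuron markers 2 were higher and 5 lower (median -0.35). The part of these cells in the values below was not tested. Leaving out a library leaves no residual degree of freedom, so the ratio within each condition is given instead.

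Scn4b was 3.05 times as high in number 1 as in number 2 after cocaine and 3.52 times in home-cage mice (log2 1.72, SE 0.0877, adjusted p = 1.99e-08). Cacna2d3 had ratios of 2.17 and 3.27 (log2 1.42, SE 0.124, adjusted p = 1.02e-06), Cacng4 1.83 and 2.04 (log2 0.95, SE 0.08, adjusted p = 7.21e-07) and Cacna2d2 1.74 and 2.03 (log2 0.91, SE 0.0828, adjusted p = 1.49e-06). The 6 largest positive values, with Cacng1 and Cacnb4, were all those of auxiliary subunit genes. Cacnb4 (log2 0.60, SE 0.0916), Cacna2d4, a retinal alpha2delta gene (0.51, SE 0.127), and Scn9a (0.47, SE 0.0893) were also higher in number 1, as was Cacng1 (1.43, SE 0.311) with 24 to 136 counts per NAc library. Lower in number 1 were the T-type gene Cacna1g, with ratios of 0.738 and 0.528 (log2 -0.68, SE 0.101, adjusted p = 0.000175), Cacng5, with 0.827 and 0.629 (log2 -0.47, SE 0.0935, adjusted p = 0.00203), Hcn4, with 0.758 and 0.732 (log2 -0.42, SE 0.0907, adjusted p = 0.00357), and Cacnb3, with 0.832 and 0.69 (log2 -0.40, SE 0.0858, adjusted p = 0.00368). Hcn3 (log2 -0.35), Cacna2d1 (-0.33) and Cacng8 (-0.26) were lower too. DESeq2 called 16 of the 42 genes by number, and Cacng1, Cacna2d4 and Hcn3 were not among them.

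The 17 genes called higher in NAc in exposed mice were split by number. Over all genes 9.67% were higher and 9.16% lower in number 1. The share among all genes called higher in NAc was not computed, and both calls use the cocaine libraries. Cacna2d2, Cacna2d3, Cacnb2, Cacng1, Cacng4, Scn4b and Scn9a (7 genes) were higher in number 1. A further 4 genes, among them Cacng5, Cacng8 and Hcn4, were lower in number 1. The other 6, among them Cacna1c and Cacna1e, were not called by number; Cacna1c had number ratios of 1.11 and 1.08 and Cacna1e 0.981 and 1.1. Cacng4 and Cacng5, neighbours on chromosome 11, thus both exceeded their mPFC level in every NAc library and differed by number in opposite directions. Of the 8 genes called lower in NAc, Scn1a was higher in number 1, 2 were lower, Cacnb3 among them, and 5 were not called.

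**Figure D4:**
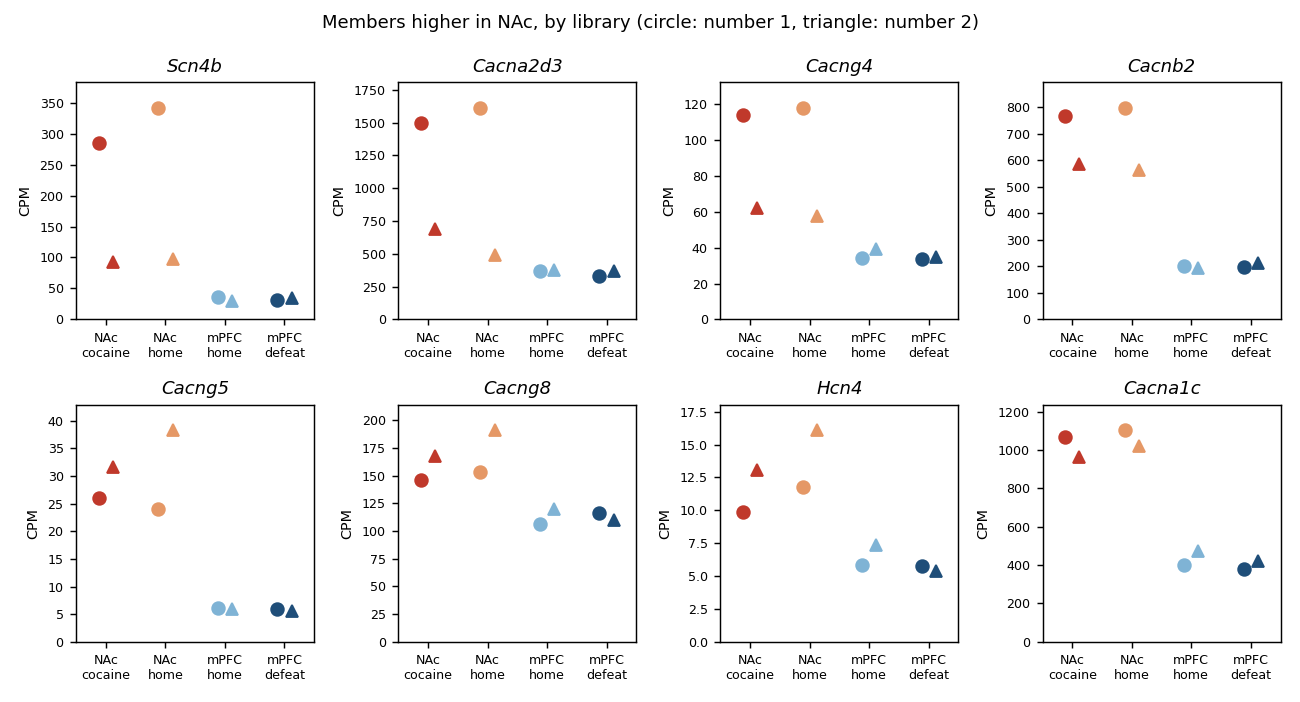
CPM of 8 genes higher in NAc, by group and library, with circles for number 1 and triangles for number 2 and axes from 0. The upper row (Scn4b, Cacna2d3, Cacng4, Cacnb2) is higher in NAc number 1 than number 2; Cacng5, Cacng8 and Hcn4 in the lower row are lower, and Cacna1c has ratios of 1.11 and 1.08.

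After cocaine, no channel gene was called changed in NAc. edgeR called 0% of all genes in this comparison, and DESeq2 called 0 of the 42; at an unadjusted p under 0.05 there was 1 of the 42 and 211 of all 18418 genes tested. The median log2 fold change of the 42 was -0.07 (all genes -0.01), with 14 positive and 28 negative. Striatal markers had a median of -0.17, with 1 of 12 positive. Oligodendrocyte markers had a median of 0.36, with 8 of 8 positive, and summed to 2457 and 2171 CPM after cocaine and 2304 and 1301 CPM in home-cage libraries. The part of these cells was not tested. Cacng6, a close relative of Cacng1, had 0.818 and 0.966 CPM after cocaine and 1.39 and 1.56 CPM in home-cage libraries, both lower after cocaine (log2 -0.72, SE 0.191, adjusted p = 1). The next smallest p among those lower were those of Cacng7, with 111 and 113 CPM against 118 and 133, and Scn3b, with 110 and 104 CPM against 117 and 118. Among those with a positive value the smallest p was that of Cacna2d4, with 5.07 and 3.86 CPM against 4.56 and 2.97 (log2 0.25, SE 0.273). In 6 genes both cocaine libraries lay below both home-cage libraries, and in 0 above, where 13.2% of all genes lay below and 11.2% above. For genes split by number the interval was wide: the cocaine difference of Scn4b was -0.21 with an SE of 0.8, and that of Cacna2d3 0.06 with an SE of 0.683.

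After defeat, no channel gene was called changed in mPFC, where edgeR called 0.704% of all genes. Unadjusted p was under 0.05 for 5 of the 42, all of them lower after defeat (Scn10a, Cacna2d4, Scn7a, Hcn4 and Cacna1d), and for 1288 of all 18027 genes, and DESeq2 called 0 of the 42. Scn10a had 0.317 and 0.54 CPM in home-cage libraries and 0.19 and 0.208 CPM after defeat, from 25 to 60 counts per library (log2 -1.09, SE 0.317, adjusted p = 0.109). It was called lower without mPFC home-cage replicate 1 or with no low-count filter, 1 gene of the 42 in each case. The 5 markers of peripheral sensory neurons, the cells in which Scn10a is best known, summed to 1.65 and 1.83 CPM in home-cage libraries and 2.44 and 2.63 CPM after defeat. Of the 4 that entered the fit, 3 were positive and 1 was called higher, with a median log2 of 0.09. The part of these cells was not tested. Cacna2d4 had 4.08 and 3.94 CPM against 3.21 and 3.26 after defeat (log2 -0.32, SE 0.121, adjusted p = 0.397), and Scn7a 6.6 and 7.96 CPM against 6.7 and 5.7 (log2 -0.24, SE 0.108, adjusted p = 0.621). Scn3b was the 1 gene with both defeat libraries above both home-cage libraries (18.3% of all genes), at 105 and 95 CPM against 92.1 and 93.3, and 10 genes lay below (15.8% of all genes). The median of the 42 was log2 -0.08 (all genes -0.00), with 10 positive and 32 negative. Oligodendrocyte markers had a median of -0.21, with 0 of 8 positive, and summed to 1441 and 1196 CPM in home-cage libraries and 1067 and 1177 CPM after defeat. Blood cell markers, mainly globin genes, summed to 23.5 and 23.1 CPM in home-cage libraries and 62 and 57.2 CPM after defeat. The part of either list was not tested.

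The difference between both responses was fitted over all 8 libraries. It called 0 of the 42 and 0% of all genes, with 0 of the 42 and 415 of all genes at an unadjusted p under 0.05, and DESeq2 called 0 of the 42. Since this contrast equals the difference between the NAc-to-mPFC values of exposed and home-cage mice, the genes called between regions in exposed mice only were not shown to differ from their home-cage values. The smallest unadjusted p were those of Scn3b (log2 -0.22, SE 0.112) and Scn10a (log2 1.14, SE 0.598).

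**Figure D5:**
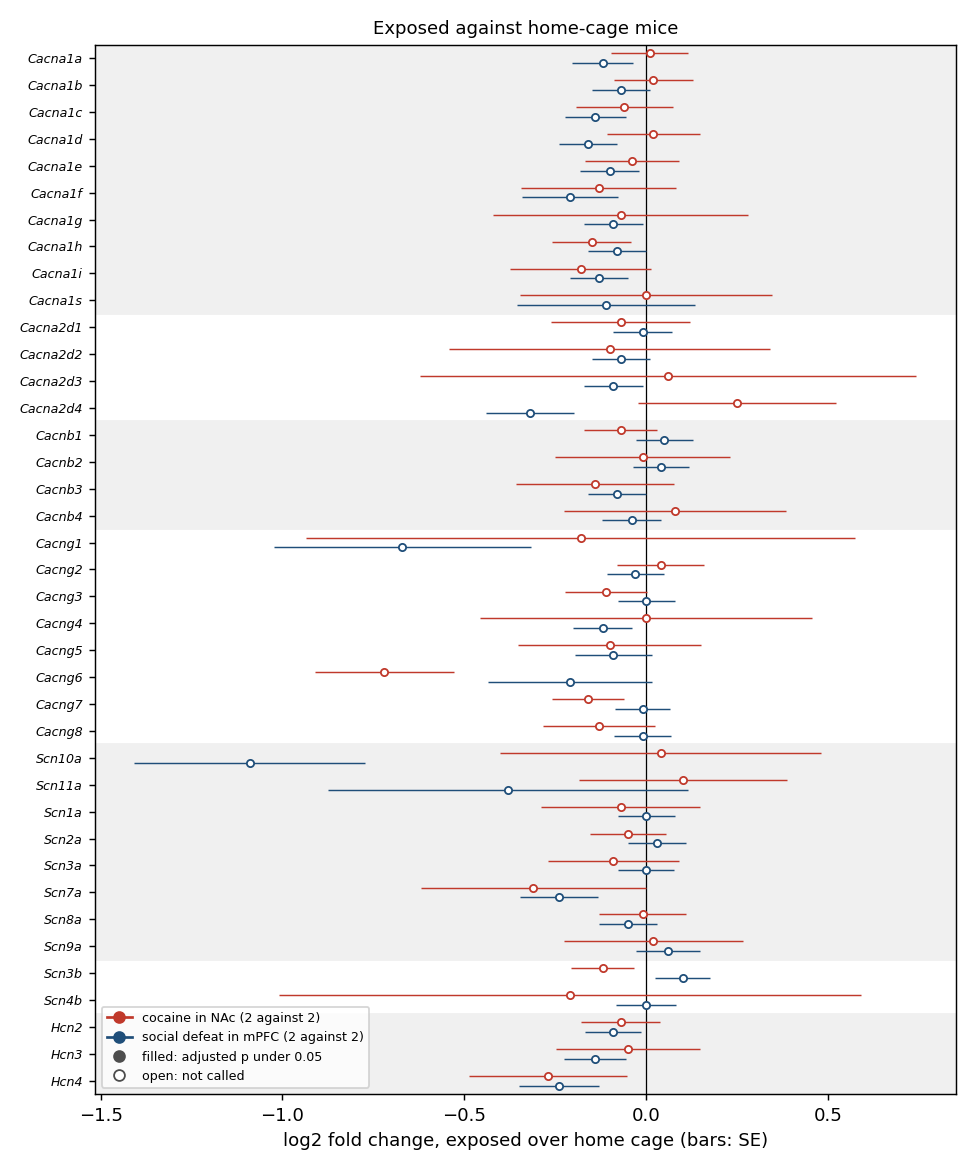
Log2 fold change after cocaine in NAc (red) and after defeat in mPFC (blue) for channel genes, grouped by family, with standard errors; open points have an adjusted p of 0.05 or more, and no point is filled. Bars are widest in NAc for genes that differ by library number, such as Scn4b with an SE of 0.8.

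Genes of proteins that act on these channels were followed as 5 lists. Of 15 calcium channel partners and regulators, 1 was higher after defeat and 0 lower, where 0.704% of all genes were called: Gem, an RGK protein that inhibits calcium channels and is itself induced by activity. It had 0.678 and 0.89 CPM in mPFC home-cage libraries and 1.51 and 1.55 CPM after defeat (1.95-fold, log2 0.96, SE 0.184, adjusted p = 0.000617), and 1.49 to 1.9 CPM in all NAc libraries. After cocaine 0 of 15 were called. Between regions in home-cage mice 3 of the 15 were higher in NAc and 1 lower, where 7.01% and 5.35% of all genes were. Stac, an adaptor that keeps L-type channels at the membrane, had 10.5 to 17.5 CPM in NAc and 2.19 to 2.81 CPM in mPFC (5.45-fold, log2 2.45, SE 0.245, adjusted p = 0.00765). Its relative Stac2 had 28.2 to 39.7 CPM in NAc and 105 to 112 CPM in mPFC (3.13-fold lower, log2 -1.65, SE 0.18, adjusted p = 0.00912). Cachd1, an alpha2delta-like gene, was 2.28-fold higher in NAc (adjusted p = 0.0217). By number, 3 were higher in number 1 and 3 lower, where 9.67% and 9.16% of all genes were. Rem2, another RGK gene, had 18.1 and 22.2 CPM in number 1 and 7.14 and 7.05 CPM in number 2 (2.84-fold, adjusted p = 7.82e-08).

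Of 11 sodium channel partners and axon initial segment genes, 1 was higher in NAc in home-cage mice and 0 lower, and in exposed mice 6 were higher and 1 lower. Over all genes 7.01% were higher and 5.35% lower in home-cage mice, and 19.2% and 17.1% in exposed mice. Fgf11, an intracellular FGF that binds sodium channels, had 37.7 to 44.3 CPM in NAc and 11.2 to 12.3 CPM in mPFC (3.6-fold, log2 1.85, SE 0.0914, adjusted p = 0.00209). Ank3, the ankyrin that anchors sodium channels at the initial segment, was higher in NAc in exposed mice (log2 0.59, SE 0.122, adjusted p = 0.017), and the adhesion gene Nrcam lower (log2 -0.46, SE 0.115, adjusted p = 0.0289). Of 8 HCN partners tested, 1 was higher and 1 lower in NAc in exposed mice, below the shares over all genes. Pex5l, which encodes the HCN partner TRIP8b, had 526 and 563 CPM in number 1 and 700 and 754 CPM in number 2 (log2 -0.41, SE 0.0907, adjusted p = 0.00412). Of 4 genes of the NALCN leak channel complex, Unc79 was higher in NAc in exposed mice (log2 0.55, SE 0.117, adjusted p = 0.0178). Of 11 calcium store genes, 3 were higher and 2 lower in exposed mice, near the shares over all genes. The ryanodine receptor gene Ryr3 had 659 and 661 CPM in NAc number 1, 357 and 293 in number 2 and 213 to 237 in mPFC (log2 1.22, SE 0.28, adjusted p = 0.0227). Its relative Ryr2 had 418 to 593 CPM in NAc and 824 to 899 CPM in mPFC (log2 -0.79, SE 0.135, adjusted p = 0.00983). In these 4 lists the median log2 fold change was -0.04 to 0.03 after cocaine and -0.06 to -0.02 after defeat.

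The genes most like Scn4b across the 8 libraries were found by Pearson correlation of log2 CPM over 11324 genes with a mean of at least 5 CPM, as a description. They were Slc4a4, Tmc3, Nt5e, Cntnap3 and Clip4, with r from 0.9980 to 0.9988; Slc4a4 had 475 and 520 CPM in NAc number 1, 282 and 283 in number 2 and 165 to 180 in mPFC. With 8 libraries of 2 regions, many genes share such a pattern.

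Some values may hold reads of a neighbouring gene, since the strand setting of the counting is not given in the sources used here. Exons of Cacna1d overlap those of Chdh, exons of Cacna1h those of Tpsg1 and exons of Hcn3 those of Pklr, each on the opposite strand.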

How the data were processed

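Total RNA was sequenced from 8 libraries of NAc and mPFC tissue. The authors aligned reads with STAR 2.7.1a to mm10 and counted them with featureCounts, per the submitters' processing notes; the counting options (strand, introns, multi-mapping reads), annotation and featureCounts version are not given in the sources. The deposited files, a separate one for each region, hold raw counts per gene symbol with no normalization. Titles and treatment labels gave the groups. NAc replicate numbers are those of the titles, and mPFC replicates were numbered in the order of deposit.

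The tables were joined by symbol and analysed over all genes with edgeR 4.0.16 and DESeq2 1.42.0 in R 4.3.3 and with python 3.11.15 (pandas 2.3.3, scipy 1.17.1, matplotlib 3.10.9). Each of 6 comparisons used filterByExpr, TMM factors and the quasi-likelihood test, and genes were called at a Benjamini-Hochberg adjusted p under 0.05 over all genes tested. The treatment and region comparisons were fitted on their own 4 libraries, the difference between responses on all 8, and the NAc number comparison on the 4 NAc libraries with condition as a term. SE is the absolute log2 fold change over the square root of the F statistic. With 2 against 2 libraries the smallest two-sided p of an exact permutation test is 0.33, and none was used. The edgeR fit was tried on simulated counts of the mPFC defeat design, and the sign of contrasts was checked on simulated counts. These simulations had independent libraries and no difference by library number, so they do not cover that feature of the NAc data.

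Gene positions and exon lengths came from GENCODE M21 (GRCm38), which matched all 42 genes, and promoters from RefSeq. The precision of levels below 1 CPM is limited by counts, and intervals and SE do not cover duplicate reads, since no molecular identifiers are given.

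The genes, the lists and the tests were chosen with earlier results of these data known. Values in every library were given for called genes and for those with the smallest p where a comparison called none. Up to 8 called genes per direction got a fold change, SE and adjusted p, with up to 4 genes of a partner list. Alternatives were DESeq2, DESeq2 size factors in edgeR, no low-count filter, leaving out each library, the replicate number as a block, a fit of all 8 libraries, another length scale and ratios of mean CPM. Some genes that entered the fits and the counts are not reported here by name.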

Additional observations from a re-analysis of the deposited data

How the results depend on the processing

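Of 459 values of single genes under alternatives, 7 changed sign, none of which the test had called. The called genes among them were picked for libraries that do not overlap, so leaving out 1 library could hardly turn their sign. What could change was the call, which was lost in 4 of the values by NAc number. Between regions it was lost more often, mostly where 1 library was left out. When 1 library was left out, the cocaine values ran from -0.02 to 0.60 for Cacna2d4, from -0.02 to 0.22 for Scn11a and from -0.06 to 0.14 for Cacng2, and the defeat values from -0.05 to 0.16 for Scn9a and from -0.03 to 0.13 for Cacnb1. For cocaine, Scn11a was -0.02 and Cacng2 -0.06 without cocaine replicate 1, and Cacna2d4 was -0.02 and Cacng2 -0.05 without NAc home-cage replicate 2. For defeat, Cacnb1 was -0.03 without mPFC home-cage replicate 1, and Scn9a was -0.01 without mPFC home-cage replicate 2 and -0.05 without defeat replicate 2. Under all alternatives run, 0 of the 42 genes were called after cocaine or in the difference between responses. DESeq2 called 4 genes of all genes for cocaine and 2 for the difference between responses. Leaving out 1 library gave 0 to 1 genes for the difference between responses.

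For defeat, 1 of the 42 genes was lower with no low-count filter, and leaving out 1 library gave 0 to 1 genes lower. Of all genes, 127 were called, 58 to 238 when 1 library was left out and 5 in the fit of all 8 libraries. Between regions in home-cage mice (7 higher, 2 lower), DESeq2 gave 15 and 7, no low-count filter 13 and 4, the fit of all 8 libraries 15 and 7, and DESeq2 size factors in edgeR 1 lower. Leaving out 1 library gave 0 to 18 higher and 0 to 13 lower. Of all genes, 2262 were called, 3618 with DESeq2, 4654 in the fit of all 8 libraries and 0 to 8048 when 1 library was left out. In exposed mice, leaving out 1 library gave 4 to 20 higher, 1 to 11 lower and 1133 to 9334 of all genes. By NAc number, 3469 of all genes were called, and 2218 with DESeq2. Of the 10 highest genes per exon kilobase, 6 were among the 10 highest per kilobase with introns. The cause of these shifts was not tested.

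Same-numbered NAc libraries deviated together from their group means (r = 0.77 across 18418 genes), but no label ties the number to a shared animal or batch, and there are only 2 pairs. With the replicate number as a block, 38 of all genes were called for cocaine and 3 for the difference between responses, with 0 of the 42 in each.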
